A study of Caenorhabditis elegans with 2 samples.

Results

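The transfer RNA (tRNA) genes of the nematode Caenorhabditis elegans were examined for binding sites of ZTF-6, a zinc finger protein. They were all nuclear genes with the biotype tRNA in the Ensembl annotation of the WBcel235 assembly, 612 of 46890 annotated nuclear genes. Each gene was extended by 100 bp on both sides, and it was counted as having a peak when the summit of a binding site, the position of its highest signal, fell in that window. The data were chromatin immunoprecipitation followed by sequencing (ChIP-seq) from strain RW12301, genotype st12301[ztf-6::TY1::EGFP::3xFLAG] I, in which CRISPR had inserted the tag at the ztf-6 locus, precipitated with an antibody against GFP. Whole young adults of 62 hours, grown from starved L1 larvae after bleaching, were used in 2 biological replicates of this single group. There was no second condition, so the comparisons are among the genes and between the replicates. A whole animal mixes all tissues, and a site can come from any of them.

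tRNA genes are short and are transcribed by RNA polymerase III. Their promoter lies inside the gene: the A box, near the 5′ end, and the B box, in the part that encodes the T arm, are bound by the factor TFIIIC, which brings TFIIIB to the DNA just upstream. A run of T after the gene ends transcription. The genes exist in many copies, named for the amino acid the tRNA carries (the isotype) and for the anticodon, and copies with one sequence can lie on several chromosomes. In this species many tRNA genes lie on the X chromosome, and many lie in introns of protein-coding genes or side by side.

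Gene bodies are shown for 3 of the strongest peaks, and for 3 families of identical genes in which no member had a peak in the authors' conservative list, the main list below. The first set was the tRNA-Leu gene C04A11.t1 (anticodon CAA, chrX:13665555-13665673, plus strand), the tRNA-Lys gene T23F1.t1 (TTT, chrV:15465086-15465158, plus strand) and the tRNA-Ala gene F15G9.t1 (TGC, chrX:9743589-9743660, plus strand). The second set was C13B4.t1 for the tRNA-Gln family (TTG, chrII:14474842-14474913, minus strand), C04E7.t1 for a tRNA-Leu family (AAG, chrX:353255-353336, minus strand) and C14F11.t1 for a tRNA-Arg family (ACG, chrX:6220070-6220142, minus strand). Sequences are from the RefSeq copy of WBcel235 (ce11), 5′ to 3′ on the gene's strand, and capitals mark matches to the A box word TNGCNNAG in the first 25 bases and to the B box word GTTCNANNC. The bodies of M02F4.t1 and M02F4.t2, at the strongest peak, are not printed, and neither had a match to TNGCNNAG there. F52C9.t1, at the next peak left out, had one.
C04A11.t1: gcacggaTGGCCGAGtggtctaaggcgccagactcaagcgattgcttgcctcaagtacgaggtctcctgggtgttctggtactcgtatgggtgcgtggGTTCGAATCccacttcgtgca
T23F1.t1: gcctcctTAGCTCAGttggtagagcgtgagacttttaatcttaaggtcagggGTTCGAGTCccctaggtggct
F15G9.t1: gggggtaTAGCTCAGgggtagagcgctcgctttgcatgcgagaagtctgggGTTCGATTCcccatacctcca
C13B4.t1: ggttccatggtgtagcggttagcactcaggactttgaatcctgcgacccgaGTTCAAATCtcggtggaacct
C04E7.t1: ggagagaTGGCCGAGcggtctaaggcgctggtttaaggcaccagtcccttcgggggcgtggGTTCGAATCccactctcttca
C14F11.t1: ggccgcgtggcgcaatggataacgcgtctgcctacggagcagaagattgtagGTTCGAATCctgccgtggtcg

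Flanks are shown where copies of one gene body differed in having a peak and where one summit lay between 2 genes. The 60 bases upstream are given for T23F1.t1, which had a peak, and for F49C5.t4 (chrII:12541688-12541760, minus strand), which has the identical body and had none; the printed stretches are chrV:15465026-15465085, plus strand, and chrII:12541761-12541820, minus strand. The third sequence is the 116 bases (chrX:3036048-3036163, plus strand) between the divergent genes M02F4.t2 and M02F4.t1, with the summit of the strongest peak at a tRNA gene, base 72, in a capital.
T23F1.t1 upstream: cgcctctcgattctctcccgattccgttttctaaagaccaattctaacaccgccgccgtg
F49C5.t4 upstream: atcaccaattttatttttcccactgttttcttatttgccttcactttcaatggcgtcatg
M02F4.t2 to M02F4.t1: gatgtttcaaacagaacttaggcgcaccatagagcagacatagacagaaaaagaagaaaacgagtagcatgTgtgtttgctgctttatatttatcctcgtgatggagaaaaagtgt

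ZTF-6 peaks lay at 89 of the 612 tRNA genes (14.5%, exact 95% interval 11.8 to 17.6) in the authors' conservative list, which rests on both replicates. By the same window rule, 1.12% of all 46890 nuclear genes had a peak, and 0.148% of genome windows as long as a typical extended tRNA gene did. Other short noncoding genes had shares in the same range: 36 of 346 snoRNA genes (10.4%, 7.39 to 14.1) and 17 of 129 snRNA genes (13.2%, 7.87 to 20.3). At 523 of the tRNA genes the list held no peak. Intervals here and below cover counting error only, and they treat genes as separate although neighbours can share a peak. Per the deposited file lists, peaks were derived against a control alignment; whether tRNA genes have peaks for other tagged proteins in this assay was not tested.

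The 89 genes lay at 80 different strongest peaks. Of these peaks, 9 were shared by a pair of tRNA genes, and 1 gene held 2 summits, so that 81 of the list's 551 peaks (14.7%) fell in a tRNA window. The deposited signal, the caller's own value for each peak, in a unit the labels leave unnamed, had a median of 86.5 at tRNA genes and 85.6 at the other peaks. The highest signal at a tRNA gene was 192.2, rank 20 in the list, and the highest elsewhere was 443.5. The medians were close, and every peak above rank 20 lay at other sites.

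The authors' second thresholded list of the series had peaks at 110 tRNA genes (18.0%), against 1.25% of all nuclear genes, and 76 of the genes were in both lists. The shorter lists of single replicates held fewer. The replicate 1 list had peaks at 23 tRNA genes (3.76%), against 0.39% of all nuclear genes. The replicate 2 list had peaks at 53 (8.66%), against 0.554% of all nuclear genes. Of all peaks in the list, 8.37% fell in tRNA windows in replicate 1 and 19.4% in replicate 2. The replicates shared 14 tRNA genes, which was 60.9% of the replicate 1 genes and 26.4% of the replicate 2 genes. Of the 89 genes of the conservative list, 47 were in neither replicate's own list. In all, 128 tRNA genes had a peak in at least 1 of the 4 lists and 484 in none.

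The strongest peak at tRNA genes (192.2; chrX:3035979-3036258) lay between M02F4.t1, a tRNA-Gly gene (anticodon TCC), and M02F4.t2, a tRNA-Glu gene (CTC), in the spacer shown above. Its signal in the unthresholded ranked lists of single replicates was 90.3 in replicate 1 and 92.0 in replicate 2. The second (170.4; chrX:13665441-13665720) lay in the body of C04A11.t1, a tRNA-Leu gene (CAA) of which the genome holds a single copy. This site had 54.4 in replicate 1 and 108 in replicate 2, so the replicates differed more there than at the first. The third (135.7; chrIII:5305769-5306048) lay at F52C9.t1, a tRNA-Thr gene (TGT), with 57.0 in replicate 1 and 78.8 in replicate 2. The fourth (134.7; chrV:15464972-15465251) lay at T23F1.t1, a tRNA-Lys gene (TTT). It had 77.5 in replicate 1 and 54.8 in replicate 2, and was the one site of the 10 strongest at which replicate 1 was higher.

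The next 6 peaks ranged from 116.4 to 133.4. One peak of 133.4 served the tRNA-Ala genes F15G9.t1 and F15G9.t2, with 48.4 in replicate 1 and 73.8 in replicate 2. R11.t1, a tRNA-Tyr gene (GTA), had 133.1, with 37.3 in replicate 1 and 94.8 in replicate 2. F41D9.t3, a tRNA-Asn gene (GTT), had 131.4, with 56.9 in replicate 1 and 59.8 in replicate 2. The remaining genes were C14B9.t2 (Leu CAA, 120.8), E03E2.t1 (Ser GCT, 118.7) and C33G3.t2 (Lys TTT, 116.4). Of the 10 strongest peaks, 7 lay on X, 2 on III and 1 on V. The strongest on the other chromosomes were T21B4.t1 on II (Ile AAT, 114.6), M01E5.t1 on I (Lys CTT, 111.4) and F41A4.t1 on IV (Asp GTC, 108.0).

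A peak was found in all 4 thresholded lists at 13 tRNA genes. M02F4.t1, F52C9.t1, T23F1.t1, F15G9.t1, F41D9.t3 and C14B9.t2 are described above, as are T21B4.t1 and F41A4.t1. C02B4.t2 (Tyr GTA) had 116.1 in the conservative list, with 54.5 in replicate 1 and 61.9 in replicate 2. R01H5.t1 (Thr TGT) had 114.97, with 46.0 in replicate 1 and 62.2 in replicate 2. C28G1.t1 (Glu TTC) had 114.8, with 49.3 in replicate 1 and 64.6 in replicate 2. The adjacent genes W09G10.t2 (Lys CTT) and W09G10.t3 (Thr AGT) shared a peak of 110.8, with 49.2 in replicate 1 and 61.1 in replicate 2. These 13 genes carried 10 different isotypes, from alanine to tyrosine.

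The ranked lists, which include peaks that failed the threshold, showed how the other tRNA genes stood in each replicate. Among the 89 genes with a peak in the conservative list, 85 had a ranked peak in replicate 1 (median signal 40.6, range 28.1 to 90.3) and 85 in replicate 2 (median 45.3, 29.8 to 108). Among the 523 without, 279 had one in replicate 1 (median 21.3, 7.37 to 77.5) and 341 in replicate 2 (median 27.1, 6.56 to 67.3). The 77.5 was at T23F1.t2, whose window holds the same replicate 1 peak as that of its neighbour T23F1.t1. T23F1.t1 is a gene with a conservative peak, and the summit of that peak lay outside the window of T23F1.t2. The conservative list was chosen from these replicates, so the higher values of its genes are a description of that choice. Against each whole ranked list, the genes with a peak stood at a median signal percentile of 98.9 in replicate 1 and 99.2 in replicate 2. The ranked peaks at genes without one stood at 79.2 in replicate 1 and 92.4 in replicate 2. The 2 groups overlapped in signal in both replicates.

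Within the genes that had a ranked peak in both replicates, the signals of replicate 1 and replicate 2 followed each other weakly. Spearman's rho was 0.283 over 81 genes with a conservative peak, −0.047 over 219 genes without one and 0.386 over all 300. These are descriptions over genes that share the 2 libraries, and neighbours share peaks. The groups with and without a peak were split by a list chosen from these same replicates, so the values within them also reflect that choice. The irreproducible discovery rate (IDR), by which the authors set the threshold, was at most 0.01 for every peak in the list. The weakest tRNA genes inside it were T04D3.t2 (signal 55.1, IDR 0.00784) and F49E7.t1 (60.7, 0.00926). Just outside it were F47G6.t1 (62.5, IDR 0.0102) and C56G7.t1 (80.3, 0.0109), so signal alone did not separate the genes on either side.

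**Figure D1:**
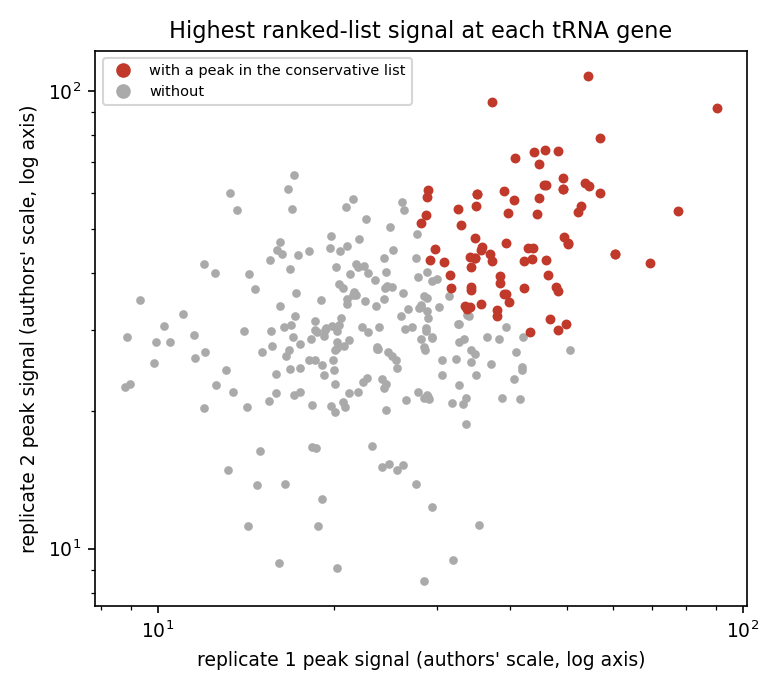
Highest ranked-list signal at each tRNA gene in replicate 1 (horizontal, log axis) and replicate 2 (vertical, log axis), on the authors' scale, for the 300 genes with a ranked peak in both. The 81 genes with a peak in the conservative list (red) sit to the upper right and meet the 219 without (grey) with no gap between them.

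The summits lay inside the genes more often than beside them. Among the 71 genes that were alone on their peak, the summit lay inside the transcribed part of 48 (67.6%, exact 95% interval 55.5 to 78.2), upstream of 16 and downstream of 7. The gene body makes up 27.6% of the window in which summits were counted. The median summit was 22 bp from the 5′ end, in the stretch after the A box, with lower and upper quartiles of 1.5 and 38 bp. In the replicate 1 list 10 of 13 such summits were inside, and in the replicate 2 list 33 of 45 (73.3%), with medians of 7 and 22 bp. The peaks with these summits were each 280 bp wide, several times the length of a tRNA gene. Over all 89 genes of the conservative list, shared peaks included, 50 had a summit inside the gene. Of the 612 tRNA genes, 473 had no stretch of 50 bases in the body that occurs once in the genome. Reads that match several places can be lost from filtered alignments, and the part of this in the summit positions was not tested.

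**Figure D2:**
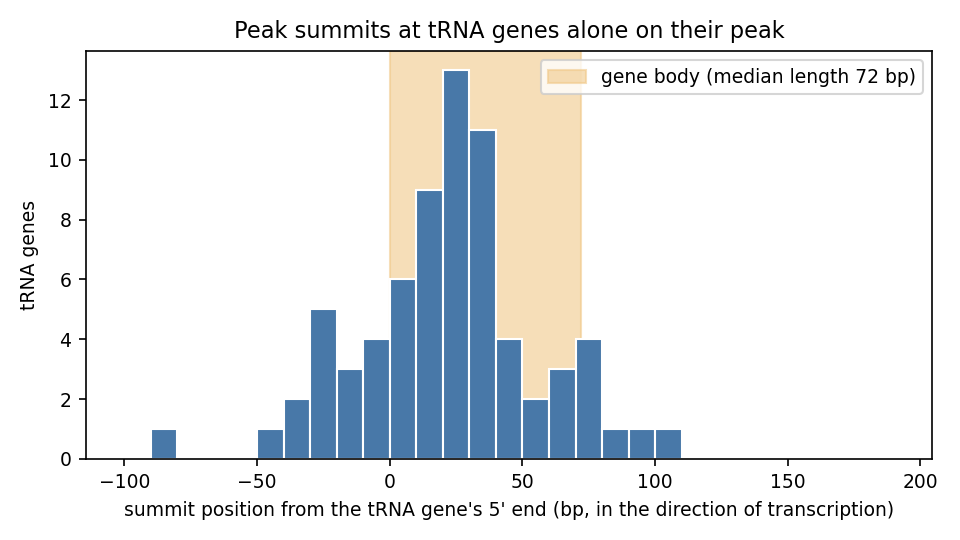
Position of the peak summit relative to the 5′ end of the tRNA gene (bp, in the direction of transcription) for the 71 tRNA genes alone on their peak; bars count genes per 10 bp and the shaded band is the median gene body of 72 bp. The highest bars stand between 20 and 40 bp, and 48 of the 71 summits lie within their own gene.

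X held 276 of the tRNA genes, and their share with a peak was close to that on the autosomes. A peak lay at 40 of 276 genes on X (14.5%, 10.6 to 19.2) and at 49 of 336 on the autosomes (14.6%, 11.0 to 18.8). The difference, X minus autosomes, was −0.0906 percentage points, with a 95% interval from −5.65 to 5.65. Among the autosomes the share was 8 of 66 on I (12.1%), 12 of 57 on II (21.1%), 14 of 64 on III (21.9%), 10 of 71 on IV (14.1%) and 5 of 78 on V (6.41%, 2.11 to 14.3). V was lowest, and the intervals of all 6 chromosomes overlapped. Such overlap does not show that the shares are equal, and differences between single chromosomes were not calculated. On chromosome arms 41 of 291 genes had a peak (14.1%), against 48 of 321 in the middle parts (15.0%).

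**Figure D3:**
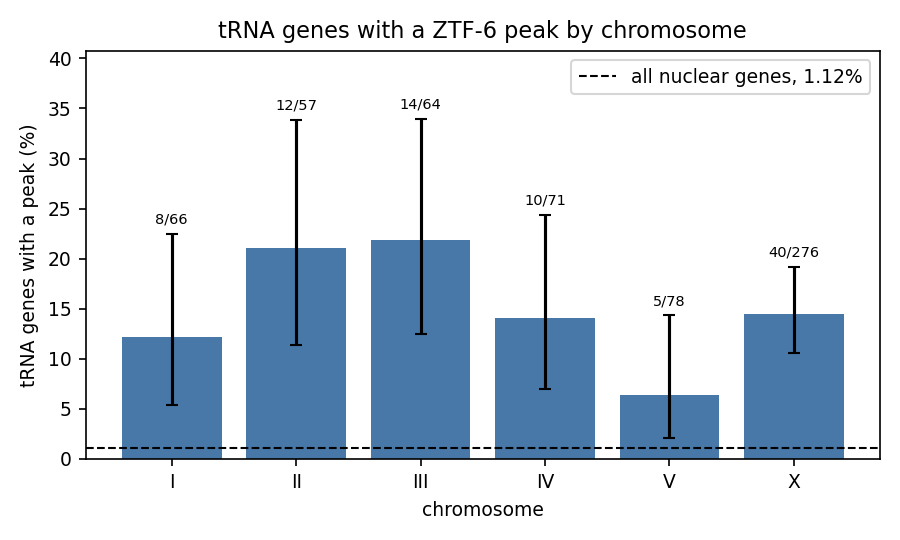
Share of tRNA genes with a peak in the conservative list (%) on each chromosome, with exact 95% intervals and the counts above the bars; the dashed line is the 1.12% of all nuclear genes. II (21.1%) and III (21.9%) stand highest and V (6.41%) lowest, with overlapping intervals, and X (14.5%) lies between them.

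Clustered genes, those whose nearest tRNA gene was less than 1000 bp away, had a peak in 31 of 236 cases (13.1%, 9.10 to 18.1), and isolated genes in 58 of 376 (15.4%, 11.9 to 19.5). The difference of −2.29 percentage points had an interval from −7.76 to 3.62. On X the clustered share was 10.4% and the isolated share 18.4%, a difference of −8.07 (−16.4 to 0.305). On the autosomes the clustered share was 16.8% and the isolated share 13.6%, a difference of 3.21 (−4.62 to 12.5). These 2 differences point opposite ways, their intervals overlap, and the difference between them was not tested.

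The closest neighbours stood apart from other clustered genes. Where the facing ends were at most 100 bp apart, 10 of 16 genes had a peak (62.5%, 35.4 to 84.8). At 101 to 1000 bp the share was 9.55%, a difference of 53.0 percentage points (28.7 to 72.2). It was 13.0% at 101 to 250 bp, 8.70% at 251 to 500 bp and 4.55% at 501 to 1000 bp. Beyond that it was 15.7% at 1001 to 5000 bp, 18.4% at 5001 to 20000 bp and 14.2% farther away. The 10 genes lay at 6 peaks, since the windows of such neighbours overlap and a summit between them counts for both. The interval of 28.7 to 72.2 treats the 16 genes as separate, although they are neighbours. The cut of 100 bp equals the bases added on each side of a gene, and it was not among the planned comparisons. How much of the difference comes from shared summits was not tested. Without the genes within 100 bp of another, in a comparison chosen after the data were seen, the clustered genes stood at −5.88 points against the isolated ones (−11.01 to −0.214).

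Pairs of adjacent tRNA genes separated by at most 150 bp numbered 33, and 12 of them had a peak at 1 gene or both. The pair shared a summit in 9 cases. Among these was W10G11.t2 with W10G11.t1 (Thr and Lys, 74.7), the same isotypes in the same order as W09G10.t3 with W09G10.t2. Y22D7AL.t3 and Y22D7AL.t4 (Met and Glu, 48 bp apart) shared a peak of 75.9. Divergent pairs, transcribed away from each other as in M02F4, were the most frequent, with 21 of the 33. A summit was shared in 4 of those 21, against 1 of 6 convergent pairs and 4 of the 6 pairs on one strand.

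In larger clusters the counts were small. In clusters of 3 genes 5 of 42 had a peak (11.9%, 3.98 to 25.6), and in clusters of 4 it was 1 of 16 (6.25%, 0.158 to 30.2). In clusters of 5 it was 0 of 10, which allows up to 30.8%, and in clusters of 6 it was 0 of 12, which allows up to 26.5%. All 4 intervals include the 14.5% of all tRNA genes. The cluster of 6 genes from F22F1.t2 to F22F1.t7 on X, with genes for serine, aspartate, methionine and isoleucine tRNAs, had peaks in the ranked list of both replicates at 4 genes, the highest with a signal of 50.8. The 6 tRNA-His genes from F28H6.t2 to F28H6.t5 on X had a ranked peak at 1 gene, with a signal of 7.38. Only 27.1% of the 50-base words in their windows (median) occurred once in the genome, against 84.8% over all tRNA genes, and reads that match several places can be lost from filtered alignments. The part of this in the result was not tested. Of the 5 genes of K01A12 on X (Arg and Cys), 3 had a ranked peak in their window, with 68.8 at the highest. Of the 5 tRNA-Gln genes of H08J11 on X, 4 had one, with 65.8 at the highest. Of the 4 tRNA-Tyr genes of R11 on X, R11.t1 had the peak described above and was the one with a peak in the ranked list of both replicates.

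**Figure D4:**
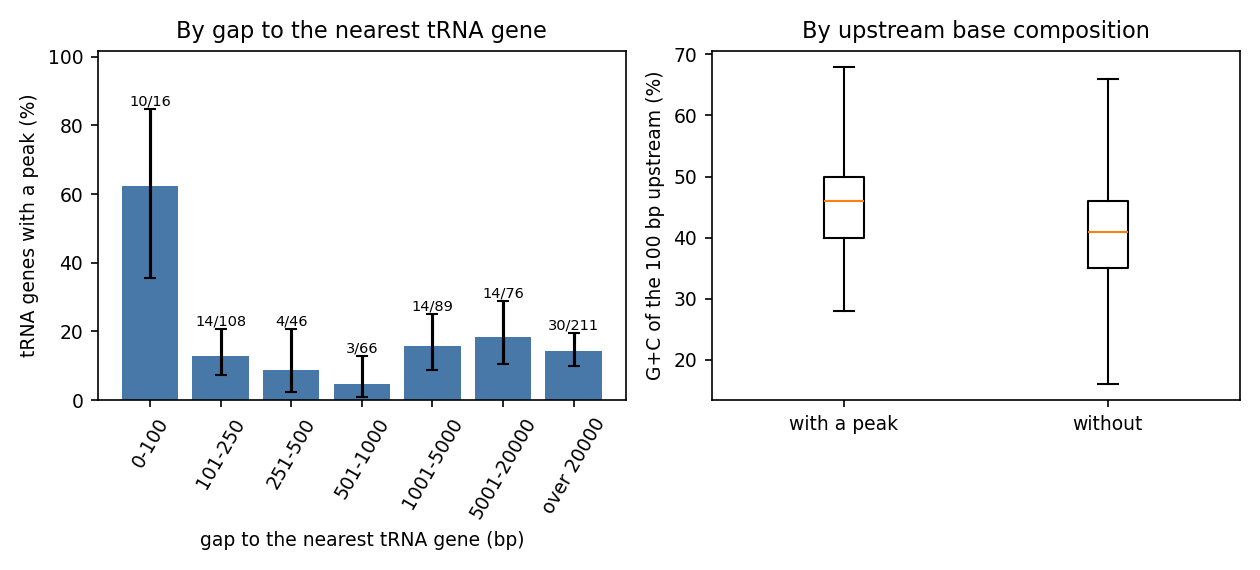
Left, share of tRNA genes with a peak (%) by the gap to the nearest tRNA gene (bp), with exact 95% intervals and counts; right, G+C content (%) of the 100 bp upstream of genes with and without a peak (box, quartiles; line, median; whiskers, lowest and highest). The 16 genes with a gap of at most 100 bp stand at 62.5%, and the upstream median is 46% with a peak and 41% without.

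Copy number was counted as the number of tRNA genes with the identical sequence. The 612 genes had 200 different sequences, and 57 of these occurred in 2 or more copies. Genes with identical copies had a peak in 76 of 469 cases (16.2%, 13.0 to 19.9), and single-copy genes in 13 of 143 (9.09%, 4.93 to 15.0). The difference was 7.11 percentage points, with an interval from 0.520 to 12.3. It had the same direction on X (16.4% of multi-copy and 7.02% of single-copy genes) and on the autosomes (16.0% and 10.5%). By number of copies the share was 9.09% at 1, 23.1% at 2, 10.7% at 3 to 5, 12% at 6 to 10, 15.4% at 11 to 20 and 23.2% at 21 or more, so it did not climb evenly. In either replicate's list alone the interval of the difference included 0, with 2.17 points in replicate 1 and 4.91 in replicate 2.

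Copies of one sequence seldom all had a peak. Of the 57 families, 30 had a peak at some member, and in 28 of those other members had none. Over the genes with identical copies the share was 16.2%, and at that share a large family would seldom have a peak at every copy. The largest family, 29 tRNA-Gly genes (TCC), had 7 with a peak and signals from 55.1 to 192.2. The next was 25 tRNA-Lys genes (CTT) with 7. Of 24 tRNA-Pro genes (TGG) 3 had a peak, of 21 tRNA-Asp genes (GTC) 6, and of 20 tRNA-Glu genes (CTC) 2. The 2 families in which every copy had a peak were pairs of tRNA-Leu genes, with anticodons TAA (98.9 and 95.5) and CAG (98.95 and 91.4). The bodies of identical genes cannot be told apart by reads that lie inside them, and 473 tRNA genes had no 50-base word in the body that was unique in the genome. Over the whole window the unique share was close in both groups, with a median of 84.4% for genes with a peak and 84.8% for genes without. Of the 16 genes with less than 60% unique words, none had a peak (0 of 16, an exact upper limit of 20.6%).

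Peaks were most frequent at aspartate, leucine and lysine tRNA genes and absent from the conservative list at glutamine and tryptophan tRNA genes, whose intervals are wide. Isotype names matched 607 of the 612 genes through RefSeq. Among isotypes with 10 or more genes, aspartate was highest with 7 of 27 (25.9%, 11.1 to 46.3), followed by leucine with 10 of 39 (25.6%, 13.0 to 42.1) and lysine with 11 of 46 (23.9%, 12.6 to 38.8). Each of these intervals includes the 14.5% of all tRNA genes. Glutamine was lowest with 0 of 27, which allows a share of up to 12.8% (exact upper limit); 1 glutamine gene had a peak in the second thresholded list. Tryptophan had 0 of 12, which allows up to 26.5% and so includes the 14.5% of all tRNA genes; 1 tryptophan gene, B0523.t1, had a peak in the second list (77.0) and in the replicate 2 list (52.4). Next was methionine with 1 of 20 (5.00%, 0.127 to 24.9). With 20 amino acid isotypes and wide intervals, the order of most neighbours is not resolved.

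Within leucine the genes divided by anticodon in the conservative list. None of the 20 genes with the anticodon AAG had a peak in the conservative list, while 10 of the 19 with other anticodons did (52.6%, 28.9 to 75.6), namely 4 of 7 with CAA, 2 of 5 with CAG, 2 of 4 with TAA and 2 of 3 with TAG. For AAG, 0 of 20 allows up to 16.8%, which includes the 14.5% of all tRNA genes. The difference between the other anticodons and AAG was 52.6 points (26.2 to 72.7); this pair of groups was chosen after the values were seen. The AAG genes were not without signal: 12 had a ranked peak in replicate 1 (8.11 to 40.4, median 23.3) and 15 in replicate 2 (15.3 to 61.2, median 29.0), and 2, among them C04E7.t1 printed above, had a peak in the second thresholded list and in the replicate 2 list. Arginine genes with the anticodon ACG had 0 of 19, against 4 of 25 with other arginine anticodons (16.0%, 4.54 to 36.1). For ACG, 0 of 19 allows up to 17.6%, which also includes the 14.5% of all tRNA genes. The ACG genes had ranked peaks of 8.86 to 50.6 in replicate 1 and 11.2 to 47.5 in replicate 2, and 1 of them had a peak in the second thresholded list and in the replicate 1 list. For glutamine the ranked signal reached 38.7 in replicate 1 and 39.2 in replicate 2.

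**Figure D5:**
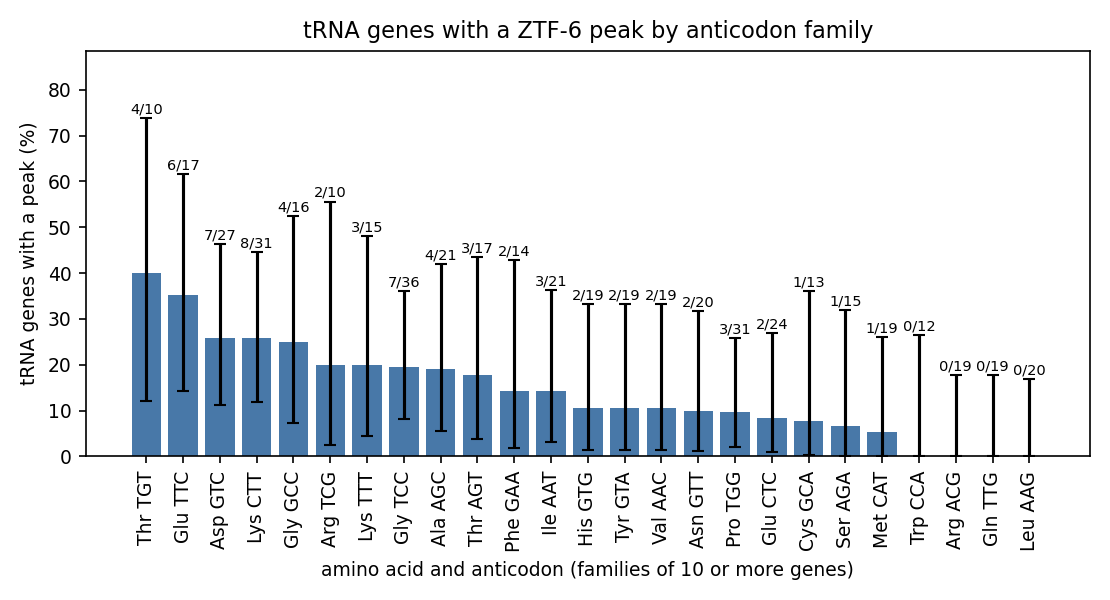
Share of tRNA genes with a peak (%) for each anticodon family of 10 or more genes, with exact 95% intervals and the counts above the bars, from highest to lowest. Thr TGT (4 of 10) and Glu TTC (6 of 17) are highest, and Trp CCA, Arg ACG, Gln TTG and Leu AAG are at 0 in the conservative list.

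Genes with a peak had more G and C in the DNA upstream than genes without, and the same median in the gene body. The median G+C content of the body was 58.3% in both groups. In the 100 bp upstream it was 46% for genes with a peak (quartiles 40 and 50) and 41% for genes without (35 and 46), with broad overlap; the genome as a whole is at 35.4%. Downstream it was 32% with a peak and 30% without. With the genes split into 4 parts by upstream G+C content, lowest to highest, the share with a peak was 7.10%, 9.71%, 16.4% and 26.8% (11 of 155, 17 of 175, 23 of 140 and 38 of 142 genes). Against the mean of their own family of identical copies, genes with a peak had a median deviation of 3.32 points and genes without one of −0.857. The upstream stretches printed above are 1 contrast within such a family, chosen after the values were seen, with 51% G+C in the 100 bp before T23F1.t1 and 34% before F49C5.t4. Over the whole family of 14 tRNA-Lys genes (TTT) the groups overlapped: the 3 copies with a peak had 43%, 49% and 51%, and the 11 without ranged from 27% to 53%. Base composition can also affect how well fragments are sequenced, and its part in the result was not tested.

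The internal promoter words occurred in both groups. The B box word GTTCNANNC was present on the gene's strand in 87 of 89 genes with a peak (97.8%) and in 500 of 523 without (95.6%), against 2.44% of 72-bp windows of the genome on either strand. The A box word TGGCNNAGT was found in 15 genes with a peak (16.9%) and in 46 without (8.80%), against 0.638% of windows. The broader TNGCNNAG, which overlaps it and was added because the longer word matched few genes, was found anywhere in 50.6% of genes with a peak and 42.6% of genes without, against 6.53% of windows. A TTTT run began within 12 bases after the end of 601 of the 612 genes, among them 87 of the 89 with a peak. These are matches of letters and not measured promoter sites.

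The share with a peak was also counted by position relative to protein-coding genes, and the intervals of the groups overlapped. Of the 290 tRNA genes inside a protein-coding gene, those on the same strand had a peak in 23 of 167 cases (13.8%) and those on the opposite strand in 23 of 123 (18.7%, 12.2 to 26.7). Outside such genes the share was 43 of 322 (13.4%, 9.84 to 17.6). Genes within 500 bp of a protein-coding start had a peak in 18 of 122 cases (14.8%). At 1001 to 2000 bp it was 29 of 147 (19.7%) and over 5000 bp 4 of 57 (7.02%). Of the 29 tRNA genes annotated with 2 exons, 6 had a peak (20.7%, 7.99 to 39.7), against 83 of 583 with 1 exon (14.2%).

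The genes for the machinery that transcribes and matures tRNAs were not marked in the conservative list. None of 18 genes for RNA polymerase III subunits and its factors carried a summit 500 bp or less from a start, set beside 1.46% of all protein-coding genes, and 0 of 18 cannot be told apart from that share. The highest signal among them in the ranked list was 58.8, at rpac-19, which encodes a subunit shared with RNA polymerase I. None of 7 tRNA maturation genes had one, among them hoe-1 (tRNase Z, which trims the 3′ end) and rtcb-1 (the tRNA ligase). Of other RNA polymerase III transcripts, rpr-1, the RNA of RNase P, which trims the 5′ end of tRNAs, had a peak with a signal of 138.9. mrpr-1, the related RNA of RNase MRP, had one of 82.0. None of the 16 annotated 5S rRNA genes had a peak in the conservative list, set beside 1.12% of all nuclear genes by the same window rule. For 0 of 16 the exact upper limit is 20.6%, which includes that share and the 14.5% of all tRNA genes. In the ranked list 3 of the 5S genes had a peak, with signals of 34.3, 40.99 and 62.2. Sequence uniqueness was not measured for the 5S genes, and whether reads were lost there from filtered alignments was not tested.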

How the data were processed

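Peak lists on ce11 (the coordinates of WBcel235) from 2 ChIP-seq replicates were the starting point. Per the deposited file lists, the authors derived peaks from filtered alignments and a control alignment, and the thresholded lists also from a further annotation file; neither the aligner nor the peak caller is named in the sources used here. The deposited signal of a peak has no stated scale, and the deposited −log10 IDR was turned back to an IDR. The ranked list of both replicates behind the printed IDR and ranked signals was matched to the conservative list by its contents, since it held every peak of that list at an IDR of 0.01 or less; no source used here states the pairing. Of its 628 peaks at an IDR of 0.01 or less, 77 are missing from the conservative list of 551, none at a tRNA gene. Read depth is unknown, so no signal has an interval.

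Genes came from Ensembl release 115, and isotypes from RefSeq; anticodons were assigned from the folded stem for 600 genes. Mitochondrial tRNA genes were left out. A gene was called clustered when another tRNA gene lay less than 1000 bp away. Uniqueness was the share of 50-base words of a window found once in the genome. No test was made: shares have exact (Clopper-Pearson) and differences Newcombe 95% intervals, with no adjustment for the number of comparisons. Assignment of summits was tested on simulated summits at genes whose windows overlap no other tRNA window. Summits shared by neighbours were not covered by it. Named genes were the 10 strongest peaks at tRNA genes, the strongest per chromosome, the genes in all 4 thresholded lists, the extreme isotypes, the largest families and clusters, and pathway members with a peak; others were named after their values were seen. The genes, lists and groupings were chosen with earlier results of these data known. Python 3.11.15, pandas 2.3.3, scipy 1.17.1 and statsmodels 0.14.6 were used.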

Additional observations from a re-analysis of the deposited data

How the results depend on the processing

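The count of 89 tRNA genes with a peak was 23 to 53 when either replicate was left out and the other replicate's own list was used, and 50 with no bases added to the gene. The other 8 alternatives gave 81 to 110: the second thresholded list, the IDR threshold alone, windows of 200 and 500 bp, any overlap of the peak, nearest gene only, genes with a B box match and windows with at least 60% unique words. X minus autosomes ranged from −0.906 to 3.36 points over 10 alternatives, each with an interval that included 0. Clustered minus isolated ranged from −6.40 to 2.37 points over 14 alternatives; it was above 0 in replicate 1 alone (1.47), with a window of 500 bp (2.37) and with clusters of 500 bp (2.11). Its interval excluded 0 in 3: with no bases added (−6.40), with each summit given to its nearest tRNA gene (−5.68) and without genes within 100 bp of another (−5.88). Multi-copy minus single-copy stayed above 0 in all 11 alternatives (1.67 to 7.94 points), and its interval excluded 0 in 6 of them. The anticodon family size in place of identical copies gave 1.67 points (−3.95 to 7.77). The alternatives on unique words and on genes within 100 bp were chosen after seeing the data. No paired analysis was possible because there is 1 group. Unknown depth limits any statement on genes without a peak.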
